A study of Homo sapiens with 56 samples.

Results

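The genes described here are the nuclear machinery that transcribes and maintains the mitochondrial genome, measured in 2 established cell lines of human acute myeloid leukaemia, Mv4;11 and KG-1, which grow in suspension. The members were taken from a list of 10 nuclear genes that had to be present in the count tables of both lines: POLRMT, TFAM, TFB1M, TFB2M, TEFM, MTERF1, MTERF3, TWNK, POLG and LRPPRC. All 10 were present in both tables and all 10 passed the filter on low counts, among 20495 genes tested in Mv4;11 and 18618 in KG-1. Each line received PMR-116 or CX-5461, both at 1 µM, or a vehicle buffer of citric acid with NaH2PO4 (50 mM each), and was sampled after 3 h or 12 h. PMR-116 and CX-5461 are inhibitors of RNA polymerase I, the nuclear enzyme that makes the large ribosomal RNA precursor, and the study asked how each compound changes gene expression. Each compound had vehicle libraries of its own at each time, so there were 16 groups, with 3 libraries a group in Mv4;11 (24 in all) and 4 a group in KG-1 (32 in all). The labels give no genetic alteration for either line. Mv4;11 was batch 1 and KG-1 batch 2 in the labels, so line and batch cannot be told apart.

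The mitochondrial genome is a small circle that is transcribed from promoters in its control region into long transcripts covering almost a whole strand. Most of its genes lie on 1 such transcript, in a fixed order that begins with the ribosomal RNAs and ends with MT-CYB, and only MT-ND6 among the mRNAs is read from the other strand. POLRMT is the RNA polymerase. TFAM bends promoter DNA and also packages the genome, TFB2M opens the promoter together with POLRMT, and TEFM keeps the polymerase moving. TFB1M, a relative of TFB2M, methylates the small mitochondrial ribosomal RNA. MTERF1 binds just downstream of the ribosomal RNA genes, and MTERF3 is known from mice as a negative regulator of mitochondrial transcription with a role in ribosome assembly. TWNK is the replicative DNA helicase, POLG the catalytic subunit of the mitochondrial DNA polymerase, and LRPPRC binds mitochondrial mRNAs and keeps them stable and polyadenylated.

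Library totals ranged from 28751758 to 41542156 estimated counts in Mv4;11 and from 31010072 to 72707757 in KG-1. Levels are given below as CPM, counts scaled to a common library size with TMM factors, so they are shares of the measured RNA, and fewer molecules per cell and a larger total cannot be told apart. Of 9 myeloid leukaemia markers, 7 had a median above 1 CPM in each line. Markers of other cell types were not all low: 2 of 6 lymphocyte markers passed 1 CPM in Mv4;11 and 4 of 6 in KG-1, where NKG7 had a median of 157 CPM and CD3D of 67.7 CPM. Of 6 erythroid and megakaryocyte markers only ITGA2B passed it, at a median of 4.72 CPM in Mv4;11 and 563 CPM in KG-1, and HBB and PF4 were at 0 in both. Of 8 fibroblast, endothelial and epithelial markers, 3 passed it in Mv4;11 and 2 in KG-1, with PECAM1 the highest in each. The part of these transcripts in the results was not tested. Changes are log2 fold changes from edgeR's quasi-likelihood test with the standard error after ±, p-values are adjusted over all genes of a comparison by the Benjamini-Hochberg method, and called means an adjusted p below 0.05. Nothing in the labels says that the libraries of a group came from separate cultures, so the p-values measure only the spread between these libraries. In Mv4;11 at 12 h, replicate 3 of the PMR-116 vehicle stood apart in its mitochondrial ribosomal RNA, with 2607 CPM of MT-RNR1 against 336 and 365 CPM in the other two. Results of that comparison for the members, the median of the mitochondrial mRNAs and some mitochondrial transcripts are therefore also given without it.

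RefSeq promoter windows (GRCh38.p14, from 250 bases before to 50 after the start of the gene) were at hand for 8 of the 10 members. MTERF3 and TWNK, which had no window, were the only members called lower in all 4 Mv4;11 comparisons with vehicle. POLRMT, TFAM and TFB1M are shown because they hold the core letters of the NRF1 binding motif, and POLG because it is the member that was called higher in both lines. POLG holds no exact match of the motifs searched, and neither do TFB2M and LRPPRC, which were lower in Mv4;11. Only exact letters were searched, so near matches are not counted. The sequences run 5′ to 3′ on the strand of the gene, and capitals mark the motif matches. They lie at chr19:633488-633787 (minus strand), chr10:58385160-58385459 (plus strand), chr6:155314435-155314734 (minus strand) and chr15:89334775-89335074 (minus strand).
POLRMT: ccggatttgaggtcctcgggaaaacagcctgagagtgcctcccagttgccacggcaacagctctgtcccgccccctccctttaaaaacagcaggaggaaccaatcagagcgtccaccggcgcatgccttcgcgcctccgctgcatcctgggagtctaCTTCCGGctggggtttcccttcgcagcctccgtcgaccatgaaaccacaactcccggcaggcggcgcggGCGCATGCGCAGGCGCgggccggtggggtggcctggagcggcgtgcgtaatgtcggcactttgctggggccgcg
TFAM: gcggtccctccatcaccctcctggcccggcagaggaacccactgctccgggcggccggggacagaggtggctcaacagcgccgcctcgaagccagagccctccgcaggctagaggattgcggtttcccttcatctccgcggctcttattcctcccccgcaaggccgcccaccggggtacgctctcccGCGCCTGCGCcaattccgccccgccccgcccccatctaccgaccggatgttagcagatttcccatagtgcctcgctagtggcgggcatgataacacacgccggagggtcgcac
TFB1M: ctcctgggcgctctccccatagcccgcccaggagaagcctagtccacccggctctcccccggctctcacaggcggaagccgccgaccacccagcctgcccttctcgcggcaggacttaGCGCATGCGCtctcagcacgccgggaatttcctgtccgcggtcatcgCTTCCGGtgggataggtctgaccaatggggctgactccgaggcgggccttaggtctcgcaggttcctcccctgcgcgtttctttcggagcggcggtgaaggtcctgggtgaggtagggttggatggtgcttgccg
POLG: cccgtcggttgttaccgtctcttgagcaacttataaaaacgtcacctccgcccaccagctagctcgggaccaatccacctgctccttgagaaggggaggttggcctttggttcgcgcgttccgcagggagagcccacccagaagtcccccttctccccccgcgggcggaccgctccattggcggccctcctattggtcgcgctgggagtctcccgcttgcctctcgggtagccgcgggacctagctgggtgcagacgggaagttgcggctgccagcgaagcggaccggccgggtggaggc
The NRF1 core was searched as GCGCA, any base, then GCGC, an ETS core as CCGGAAG and an E-box as CACGTG, on both strands. The NRF1 core was found in 3 of the 8 windows and in 5.78% of all 35116 promoters. POLRMT held 2 overlapping matches that began 24 and 18 bases before the start, TFAM held 1 at 63 bases and TFB1M 1 at 132 bases before it. The ETS core was found in 4 of the 8 (POLRMT, TFB1M, TEFM and MTERF1) and in 10.3% of all promoters, and the E-box in none of the 8 and in 7.26% of all. POLRMT and TFB1M, which held both motifs, fell in Mv4;11, and TEFM and MTERF1, which held the ETS core, did not pass the test in any comparison with vehicle. These matches describe letters in a window and not binding, and their part in the changes was not tested.

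In Mv4;11 most members were lower after both compounds, and more of them were called at 12 h than at 3 h of each compound. After 12 h of PMR-116, 7 of the 10 were lower and none was higher: POLRMT, TFAM, TFB1M, TFB2M, MTERF3, TWNK and LRPPRC. In that comparison 22.5% of all genes tested were called lower and 43.2% were called in either direction. CX-5461 for 12 h lowered 6 of the 10, all of these except TFB1M, where 16.5% of all genes were called lower and 31.4% in either direction. At 3 h, PMR-116 libraries had 5 members lower and 1 higher, beside a background of 13.1% lower, 11.0% higher and 24.1% in either direction. At 3 h, CX-5461 libraries had 3 lower and 1 higher, beside 6.61% lower, 5.05% higher and 11.7% in either direction. Treated libraries lay wholly below vehicle for 7 of the 10 at 12 h of PMR-116 (5132 of 20495 genes did), 7 at 12 h of CX-5461 (4622 genes), 5 at 3 h of PMR-116 (3702 genes) and 4 at 3 h of CX-5461 (3007 genes). The median log2 fold change of the members in Mv4;11 was -0.19 at 3 h and -0.52 at 12 h of PMR-116, and -0.18 at 3 h and -0.29 at 12 h of CX-5461, while the median of all genes lay between -0.00057 and 0.036.

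In KG-1 no member was called lower after either compound at either time in the main fit. TFB1M was called lower at 3 h of PMR-116 without treated replicate 2 (-0.26, adjusted p = 0.0339). It was also called lower there with all libraries and replicate number as a block in the fit (-0.19, adjusted p = 0.0255). POLG was higher after 3 h of PMR-116, and TFAM, POLG and LRPPRC were higher after 12 h of PMR-116. The share of all genes called was 7.33% after 3 h and 9.46% after 12 h of PMR-116 (3.61% and 4.73% called higher, the direction of these members). No member was called after CX-5461 in KG-1 at 3 h, where 3.44% of genes were called, or at 12 h, where 2.54% were. At an unadjusted p under 0.05 there were 3 members at 3 h and 1 at 12 h of CX-5461, but the share of all genes at that threshold was not counted. DESeq2 called 1 and 0 members at these times. With the replicate block, POLG and POLRMT were called higher at 3 h of CX-5461 (adjusted p = 0.0142 and 0.0208), where 1733 genes were called in all, and no member was called at 12 h. Without treated replicate 3, LRPPRC was called higher at 12 h of CX-5461 (0.23, adjusted p = 0.0244). Median member changes in KG-1 were 0.079 at 3 h and 0.16 at 12 h of PMR-116, and 0.026 at 3 h and 0.048 at 12 h of CX-5461.

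**Figure D1:**
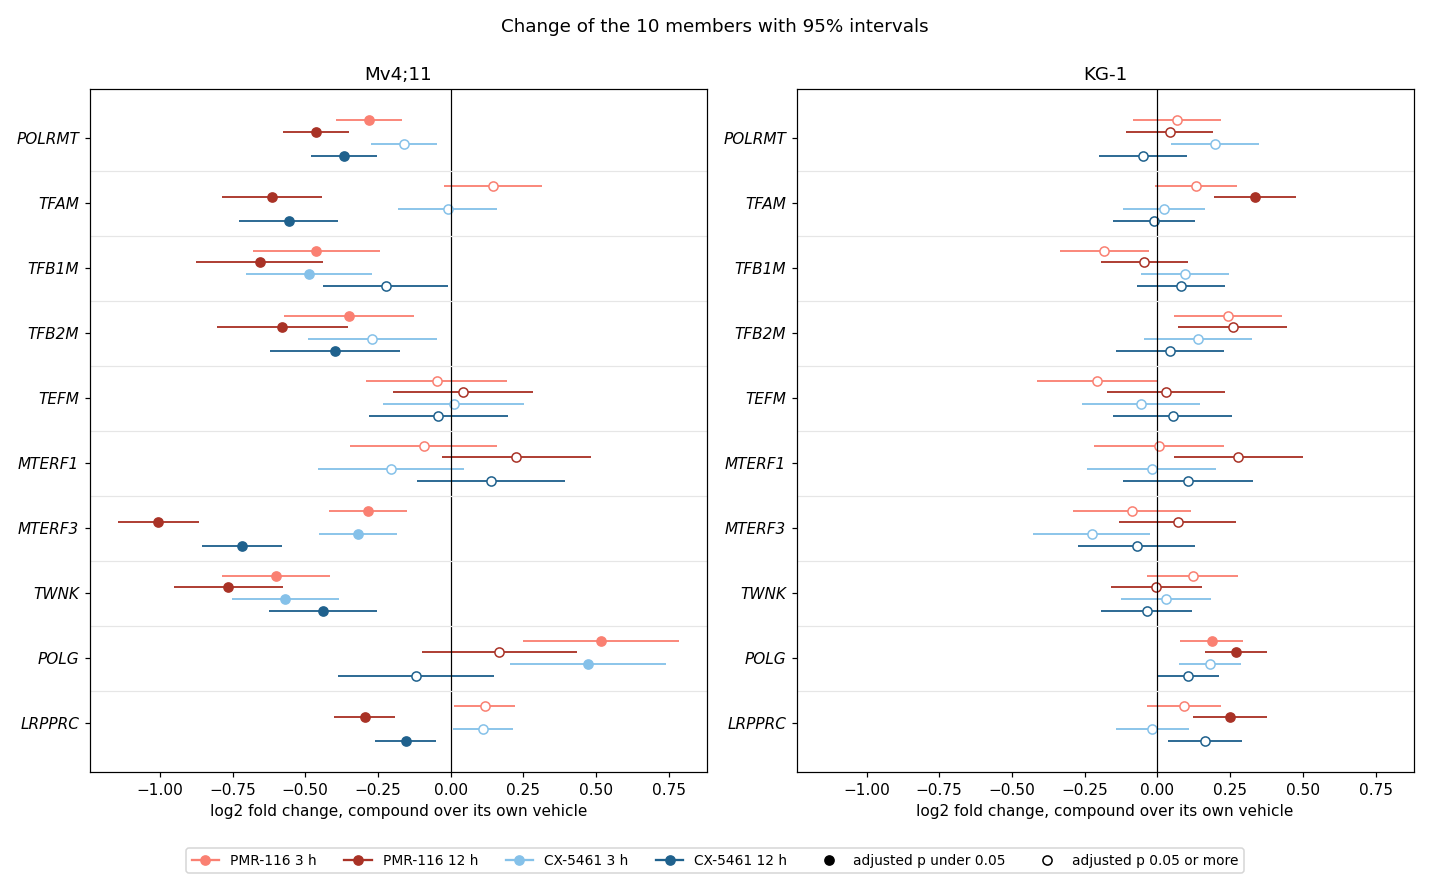
Log2 fold change of each member against vehicle, with 95% intervals, in the 8 comparisons of compound, line and time. In Mv4;11 the values run from -1.01 (MTERF3, 12 h of PMR-116) to 0.52 (POLG, 3 h of PMR-116), while in KG-1 they stay between -0.23 and 0.33.

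POLRMT, the polymerase itself (GRCh38, chr19:617224-633604, minus strand), was measured at 81.8, 77.6 and 75.2 CPM in the 3 Mv4;11 libraries given PMR-116 for 12 h, against 107, 113 and 103 CPM in their vehicle libraries. Every treated library lay below every vehicle library, and the change was -0.46 ± 0.058 (adjusted p = 4.67e-07). With CX-5461 for 12 h the libraries held 91.8, 89.2 and 86.97 CPM, against 112, 122 and 113 CPM with vehicle, a change of -0.37 ± 0.058 (adjusted p = 2.37e-05). At 3 h the PMR-116 libraries already stood apart, with 102, 94.99 and 91.9 CPM against 114, 114 and 123 CPM with vehicle (-0.28 ± 0.058, adjusted p = 0.000816). The 3 h CX-5461 libraries, at 105, 102 and 95.1 CPM, did not overlap their vehicle libraries at 109, 115 and 114 CPM either, but the difference did not pass the test (-0.16 ± 0.058, adjusted p = 0.0723, and 0.0383 with DESeq2). In KG-1, POLRMT was not called in any comparison of the main fit. Its KG-1 changes were 0.066 at 3 h and 0.042 at 12 h of PMR-116, 0.20 at 3 h and -0.05 at 12 h of CX-5461. The smallest adjusted p was 0.168, at 3 h of CX-5461, and it was 0.0208 there with the replicate block.

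TFAM, which packages the mitochondrial genome (GRCh38, chr10:58385022-58399221, plus strand), moved at 12 h and in opposite directions in the lines after PMR-116. In Mv4;11 it was at 72.7, 59.5 and 66.6 CPM after 12 h of PMR-116, against 114, 99.2 and 90.999 CPM with vehicle, and no libraries overlapped. The change was -0.61 ± 0.088 (adjusted p = 3.18e-06). CX-5461 for 12 h gave 74.5, 64.4 and 74.8 CPM, against 104, 109 and 102 CPM with vehicle (-0.56 ± 0.087, adjusted p = 2.25e-05). At 3 h it did not pass the test in Mv4;11, with changes of 0.15 ± 0.086 for PMR-116 (adjusted p = 0.247) and -0.011 ± 0.086 for CX-5461 (adjusted p = 0.963). In KG-1 the 4 libraries given PMR-116 for 12 h held 91.4, 86.9, 91.5 and 73.9 CPM, against 74.1, 70.7, 64.6 and 63.2 CPM with vehicle. TFAM was thus higher by 0.33 ± 0.072 (adjusted p = 0.00275), although the lowest treated library fell just under the highest vehicle library. With CX-5461 for 12 h the KG-1 libraries held 77.2, 73.9, 61.9 and 67.3 CPM, against 77.3, 67.997, 68.3 and 69.02 CPM with vehicle, a change of -0.011 ± 0.072 with a 95% interval of -0.15 to 0.13 and an adjusted p of 0.976.

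TFB2M, the promoter-opening factor (GRCh38, chr1:246540560-246566324, minus strand), was at 28.3, 20.9 and 26.2 CPM in Mv4;11 after 12 h of PMR-116, against 41.9, 38.6 and 32.1 CPM with vehicle (-0.58 ± 0.12, adjusted p = 0.000221). The 12 h CX-5461 libraries held 32.6, 28.2 and 28.6 CPM, against 39.2, 40.1 and 38.4 CPM with vehicle (-0.40 ± 0.11, adjusted p = 0.00933). In both 12 h comparisons every treated library lay below every vehicle library. After 3 h of PMR-116 it was at 37.3, 35.6 and 29.3 CPM, against 46.97, 41.9 and 41.5 CPM with vehicle (-0.35 ± 0.11, adjusted p = 0.0266). That call rested on single libraries: the adjusted p was 0.111 without vehicle replicate 1 and 0.175 without treated replicate 3. In KG-1 the 3 h PMR-116 libraries, at 57.9, 55.9, 60.8 and 57.97 CPM, all lay above their vehicle libraries, at 52.4, 46.2, 48.7 and 49.2 CPM, but the difference of 0.24 ± 0.10 did not pass the test (adjusted p = 0.129, and 0.0283 with only the compared groups in the fit). At 12 h of PMR-116 the KG-1 change was 0.26 ± 0.10 (adjusted p = 0.086), and it was called with library totals (0.0439) and without vehicle replicate 1 (0.0371). With the replicate block TFB2M was called higher at both times of PMR-116 in KG-1 (0.0298 at 3 h and 0.0166 at 12 h).

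TEFM, the elongation factor (GRCh38, chr17:30897336-30906820, minus strand), was not called in any of the 8 comparisons with vehicle. Its libraries ranged from 11.2 to 16.5 CPM in Mv4;11 and from 4.81 to 8.27 CPM in KG-1. At 3 h of PMR-116 in KG-1 every treated library lay below every vehicle library for TEFM, as for 1159 of 18618 genes. In the 12 h PMR-116 libraries of Mv4;11, where POLRMT, TFAM and TFB2M all fell, TEFM was at 16.5, 12.8 and 13.005 CPM, against 13.7, 15.6 and 11.9 CPM with vehicle. Its change was 0.042 ± 0.12, with a 95% interval of -0.20 to 0.28. That interval does not reach the -0.58 measured for TFB2M. Of the TEFM exons, 16.8% overlap an antisense transcript and 9.34% exons of ADAP2 in the GENCODE v29 annotation, so with the strand setting of the counting unstated in the sources used here, reads of these genes cannot be told apart.

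**Figure D2:**
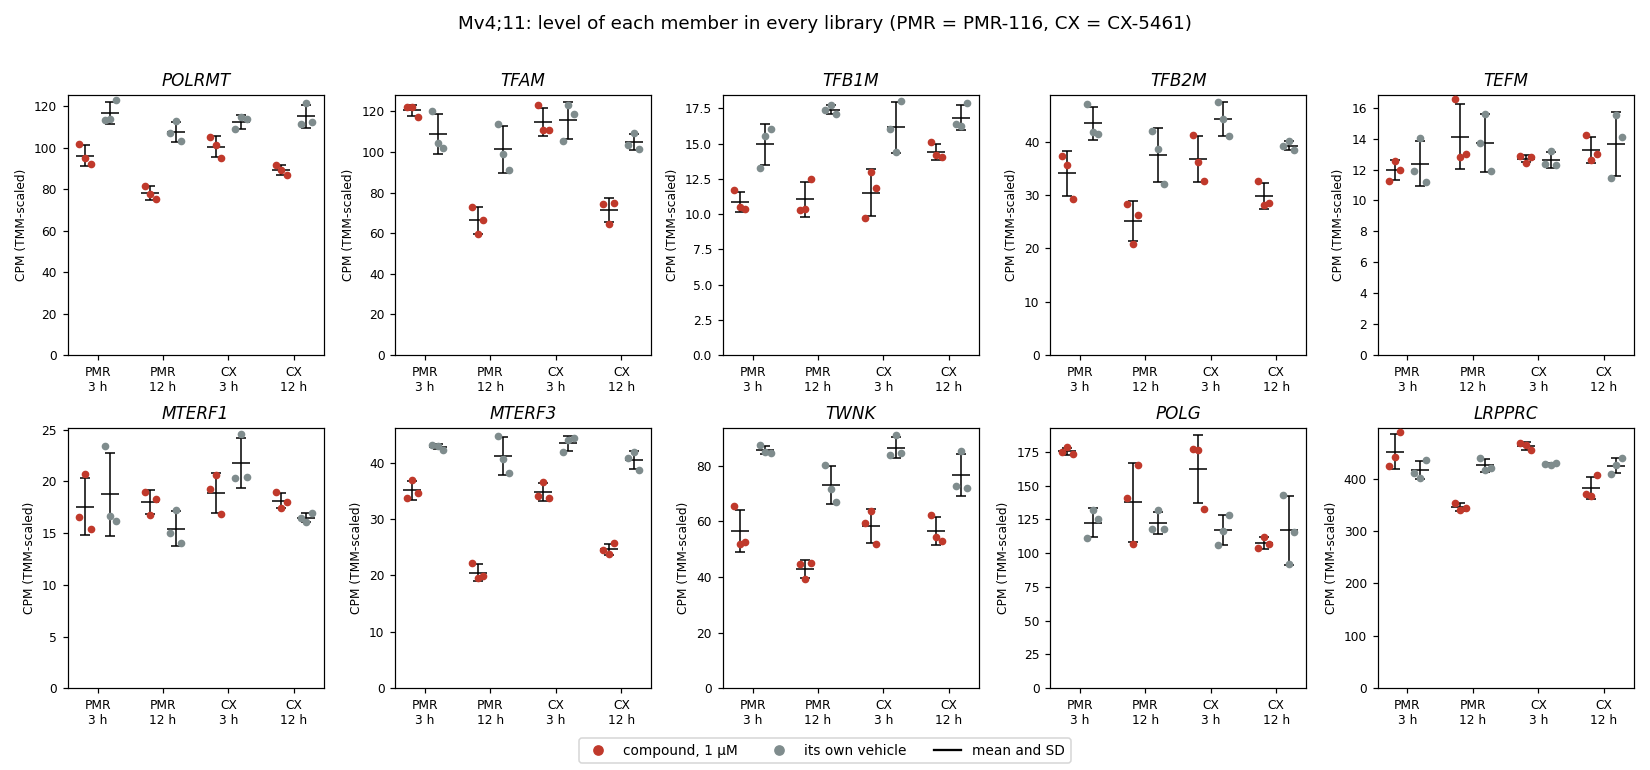
CPM of the 10 members in each of the 24 Mv4;11 libraries, by compound and time, with treated libraries left of their vehicle libraries and a bar at each group mean. The 3 PMR-116 libraries at 12 h lie below all 3 vehicle libraries for POLRMT, TFAM, TFB1M, TFB2M, MTERF3, TWNK and LRPPRC.

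TFB1M, the ribosomal RNA methyltransferase (GRCh38, chr6:155257509-155314493, minus strand), was at 10.3, 10.4 and 12.5 CPM in Mv4;11 after 12 h of PMR-116, against 17.4, 17.7 and 17.1 CPM with vehicle. The change was -0.66 ± 0.11 (adjusted p = 3.1e-05). It had fallen by 3 h, with 11.7, 10.5 and 10.4 CPM after PMR-116 against 13.3, 15.6 and 16.02 CPM with vehicle (-0.46 ± 0.11, adjusted p = 0.00337). After 3 h of CX-5461 it was at 9.72, 13.01 and 11.8 CPM, against 16.01, 14.4 and 18.04 CPM with vehicle (-0.49 ± 0.11, adjusted p = 0.00436). All 3 libraries of 12 h CX-5461, at 15.1, 14.2 and 14.03 CPM, still lay below the vehicle libraries, at 16.4, 16.2 and 17.9 CPM, but the difference was -0.22 ± 0.11 and did not pass the test (adjusted p = 0.132). In KG-1 it was not called in any comparison of the main fit. The largest change in size was -0.18 ± 0.078 at 3 h of PMR-116 (adjusted p = 0.17). It was called lower there with the replicate block (0.0255) and without treated replicate 2 (0.0339). Of the TFB1M exons, 7.86% (215 bases) overlap exons of TIAM2 on the opposite strand in the same annotation.

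MTERF3, the negative regulator, had the largest fall of the 10 members. In Mv4;11 given PMR-116 for 12 h it was at 22.2, 19.5 and 19.9 CPM, against 44.8, 40.6 and 38.1 CPM with vehicle, a mean of 20.5 ± 1.47 CPM against 41.2 ± 3.37 CPM (SD, n = 3 each). The change was -1.01 ± 0.071 (95% interval -1.14 to -0.87, adjusted p = 3.68e-11). With CX-5461 for the same time it was at 24.5, 23.7 and 25.7 CPM, against 40.9, 41.9 and 38.7 CPM with vehicle (-0.72 ± 0.07, 95% interval -0.85 to -0.58, adjusted p = 2.87e-08). Smaller falls were there at 3 h. PMR-116 libraries held 33.8, 37.01 and 34.6 CPM, against 43.1, 43.01 and 42.3 CPM with vehicle (-0.28 ± 0.069, adjusted p = 0.00352, and 0.0562 with no filter on low counts). CX-5461 libraries held 34.1, 36.6 and 33.8 CPM, against 41.8, 44.04 and 44.3 CPM with vehicle (-0.32 ± 0.069, adjusted p = 0.00279). In all 4 Mv4;11 comparisons the treated and vehicle libraries did not overlap. In KG-1 MTERF3 was not called, and its change was below 0 in 3 of the 4 comparisons. After 3 h of CX-5461 its libraries held 32.6, 27.8, 31.6 and 28.96 CPM, wholly below the vehicle libraries at 36.5, 36.97, 34.9 and 33.1 CPM (-0.23 ± 0.10, adjusted p = 0.264). The changes were -0.088 ± 0.10 at 3 h of PMR-116 and -0.071 ± 0.10 at 12 h of CX-5461. Its 12 h libraries held 42.01, 38.4, 52.7 and 40.7 CPM with PMR-116, against 43.02, 37.1, 45.4 and 40.2 CPM with vehicle, a change of 0.069 ± 0.10 with a 95% interval of -0.13 to 0.27.

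MTERF1, which binds beyond the ribosomal RNA genes (GRCh38, chr7:91692008-91880720, minus strand), was not called in any comparison with vehicle. In Mv4;11 at 12 h it was at 18.97, 16.8 and 18.3 CPM after PMR-116, against 15.01, 17.3 and 14.005 CPM with vehicle, a change of 0.23 ± 0.13 with a 95% interval of -0.03 to 0.48. With library totals in place of scaled library sizes this value was 0.40 (adjusted p = 0.0129), and with no filter on low counts 0.31 (0.0337). In KG-1 its 32 libraries lay between 8.80 and 14.9 CPM. Across its 8 comparisons the MTERF1 changes ran from -0.20 to 0.28. MTERF1 and MTERF3 are relatives by sequence family, and in Mv4;11 at 12 h the 95% interval of MTERF1 lay above that of MTERF3 for each compound.

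TWNK and POLG, the helicase and the polymerase of the mitochondrial replisome, moved in opposite directions at 3 h in Mv4;11. TWNK (GRCh38, chr10:100987367-100994401, plus strand) was at 65.4, 51.99 and 52.5 CPM after 3 h of PMR-116, against 87.4, 85.1 and 84.7 CPM with vehicle. That change of -0.60 ± 0.095 (adjusted p = 4.67e-05) was the largest fall of any member at 3 h. POLG (GRCh38, chr15:89305198-89334861, minus strand) was at 175, 178 and 174 CPM in the same treated libraries, against 111, 132 and 125 CPM with vehicle, and rose by 0.52 ± 0.14 on the log2 scale (adjusted p = 0.00683). After 3 h of CX-5461, TWNK was at 59.4, 63.6 and 51.9 CPM, against 83.99, 90.9 and 84.6 CPM with vehicle (-0.57 ± 0.095, adjusted p = 0.000193). POLG was at 177, 177 and 133 CPM after 3 h of CX-5461, against 106, 117 and 129 CPM with vehicle (0.47 ± 0.14, adjusted p = 0.0243). For both genes and both compounds the 3 h groups did not overlap. The CX-5461 call of POLG was lost when treated replicate 1 or 2, or vehicle replicate 1 or 2, was left out, with adjusted p between 0.0654 and 0.101.

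At 12 h in Mv4;11, TWNK was still lower and POLG was no longer called. TWNK was at 44.5, 39.3 and 44.96 CPM after PMR-116, against 80.4, 71.5 and 66.9 CPM with vehicle (-0.77 ± 0.10, adjusted p = 4.54e-07). It was at 62.1, 54.3 and 53.1 CPM after CX-5461, against 72.6, 85.4 and 72.2 CPM with vehicle (-0.44 ± 0.095, adjusted p = 0.00083). POLG was at 141, 107 and 165 CPM after 12 h of PMR-116, against 118, 132 and 118 CPM with vehicle, and at 104, 112 and 107 CPM after CX-5461, against 143, 92.2 and 116 CPM with vehicle. The groups overlapped for both compounds, and the POLG changes were 0.17 ± 0.14 (adjusted p = 0.348) and -0.12 ± 0.14 (adjusted p = 0.557). The 12 h PMR-116 change of POLG was called with library totals (0.34, adjusted p = 0.0433) and with no filter (0.25, adjusted p = 0.00441). POLG had the largest standard errors of the 10 members in Mv4;11.

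In KG-1, POLG was higher after PMR-116 at both times. At 12 h its libraries held 109, 97.2, 109 and 108 CPM, against 91.2, 82.3, 86.4 and 91.9 CPM with vehicle, a rise of 0.27 ± 0.055 (adjusted p = 0.00155) with no overlap. At 3 h they held 118, 105, 108 and 102 CPM, against 94.7, 95.4, 101 and 88.4 CPM with vehicle (0.19 ± 0.055, adjusted p = 0.0327). The 3 h call was lost with library totals (adjusted p = 0.136), with no filter (0.0833), with only the compared groups in the fit (0.092) and without any of 5 single libraries (0.0614 to 0.15). CX-5461 libraries of KG-1 also lay wholly above their vehicle libraries for POLG at both times, with 97.9, 106, 109.98 and 98.1 CPM against 91.3, 83.9, 94.7 and 93.8 CPM at 3 h, but the differences of 0.18 ± 0.055 and, at 12 h, 0.10 ± 0.055 did not pass the test (adjusted p = 0.0616 and 0.411). DESeq2 called the 3 h difference (adjusted p = 0.0169), and so did the fit with the replicate block (0.0142). TWNK in KG-1 was within -0.037 and 0.12 of vehicle on the log2 scale and was not called. In the GENCODE v29 annotation 7.66% of the POLG exons overlap FANCI exons and 3.61% of the TWNK exons overlap MRPL43 exons, each on the opposite strand.

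LRPPRC, the mRNA stabiliser (GRCh38, chr2:43886508-43996005, minus strand), was the most abundant member in CPM in both lines, and it changed in opposite directions in the lines at 12 h of PMR-116. In Mv4;11 it was at 355, 340.4 and 344 CPM, against 439, 417 and 420.3 CPM with vehicle (-0.30 ± 0.053, adjusted p = 6.83e-05). With library totals this call was lost (adjusted p = 0.0593). In KG-1 it was at 396, 386, 412 and 361 CPM, against 343, 338, 310.3 and 318 CPM with vehicle (0.25 ± 0.065, adjusted p = 0.0123, and 0.0504 without treated replicate 3). In neither line did the libraries of these groups overlap. For CX-5461 at 12 h in Mv4;11 it was at 372, 368 and 406 CPM, against 409, 427 and 439 CPM with vehicle. That difference of -0.15 ± 0.053 (adjusted p = 0.0293) was not called with library totals (0.334), with no filter (0.449) or without vehicle replicate 2 or 3 or treated replicate 2 (0.0544 to 0.0739). At 3 h the Mv4;11 changes were 0.12 ± 0.053 for PMR-116 and 0.11 ± 0.053 for CX-5461, with adjusted p of 0.121 and 0.201.

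**Figure D3:**
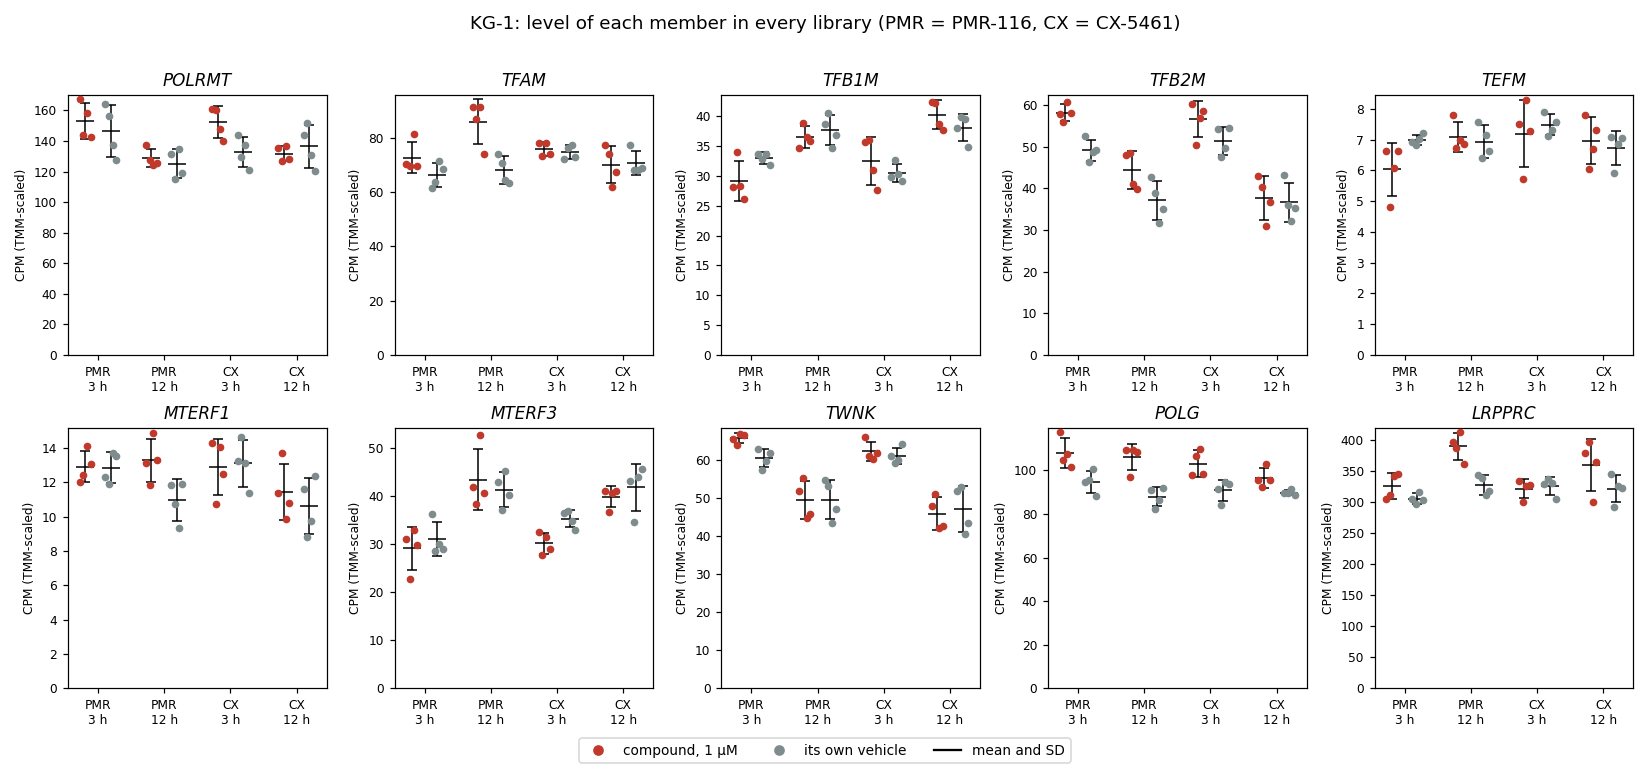
CPM of the 10 members in each of the 32 KG-1 libraries, by compound and time, with treated libraries left of their vehicle libraries and a bar at each group mean. POLG and LRPPRC lie wholly above vehicle at 12 h of PMR-116, at 97.2 to 109 against 82.3 to 91.9 CPM and 361 to 412 against 310.3 to 343 CPM, while the TWNK and TFB1M groups overlap.

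All 7 calls of the 12 h PMR-116 comparison in Mv4;11 were also made without the vehicle library that stood apart. MTERF3 was then -1.07, TWNK -0.84, TFAM -0.70, TFB2M -0.70, TFB1M -0.69, POLRMT -0.51 and LRPPRC -0.32 on the log2 scale. Scaling mattered for size, because with library totals the median of all genes in that comparison was 0.182, against 0.0093 with TMM scaling, a shift of 0.173, and the calls over all genes were 6275 higher and 3203 lower, against 4241 and 4618 with TMM. For 12 h of CX-5461 in Mv4;11 the median was 0.118, against 0.036 with TMM, a shift of 0.083, and the split was 4086 higher and 2591 lower, against 3042 and 3388. Library totals also shifted the median of all genes by 0.127 for 12 h minus 3 h of PMR-116 in Mv4;11 and by 0.103 for Mv4;11 minus KG-1 at 12 h of PMR-116.

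The effects of PMR-116 and CX-5461 at the same 1 µM and time were then compared directly, for the 10 members in 4 pairs of line and time. The difference of effects was not called for any member in any of the 4 by edgeR's quasi-likelihood test, in which 1.34% (Mv4;11, 3 h), 5.11% (Mv4;11, 12 h), 0.0107% (KG-1, 3 h) and 0.0483% (KG-1, 12 h) of all genes were called. At an unadjusted p under 0.05 there were 0, 3, 1 and 2 members in these comparisons, but the share of all genes at that threshold was not counted. DESeq2 called 1 member, MTERF3 in Mv4;11 at 12 h (adjusted p = 0.0397). The PMR-116 effect on MTERF3 there was -1.01 and the CX-5461 effect -0.72, a difference of -0.29 ± 0.10 (95% interval -0.48 to -0.095, adjusted p = 0.0992). It was called without the vehicle library that stood apart (adjusted p = 0.048). TFB1M had the lowest difference in that comparison, -0.43 ± 0.16 (95% interval -0.74 to -0.13). In KG-1 at 12 h, TFAM had the highest, 0.35 ± 0.10 (95% interval 0.15 to 0.55, adjusted p = 0.263). The intervals of the 10 members ran from -0.40 to 0.47 in Mv4;11 at 3 h, from -0.74 to 0.67 in Mv4;11 at 12 h, from -0.49 to 0.42 in KG-1 at 3 h and from -0.34 to 0.55 in KG-1 at 12 h, so differences of that size between the compounds were not excluded by these libraries.

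Between times, the 12 h effect was lower than the 3 h effect in Mv4;11 for TFAM, MTERF3 and LRPPRC with PMR-116, where 15.4% of all genes were called lower (27.6% in either direction). The differences were -0.76 ± 0.12 for TFAM (adjusted p = 4.54e-05), -0.72 ± 0.10 for MTERF3 (4.96e-06) and -0.41 ± 0.075 for LRPPRC (0.000183). With CX-5461 the same 3 members and POLG were called, where 9.15% of all genes were lower (16.7% in either direction). TFAM differed by -0.55 ± 0.12 (adjusted p = 0.00282), MTERF3 by -0.40 ± 0.10 (0.00597), LRPPRC by -0.27 ± 0.075 (0.0161) and POLG by -0.59 ± 0.19 (0.0364). The calls other than that of TFAM depended on the processing. POLG was not called with library totals (0.0609) or without any of 6 single libraries (0.0521 to 0.14), with a difference of -0.43 without 12 h vehicle replicate 1. LRPPRC was not called with library totals (0.0761), and with no filter neither LRPPRC (0.138) nor MTERF3 (0.0541) was. TWNK and TFB1M, which had fallen by 3 h, showed no called difference between the times, with -0.17 ± 0.13 and -0.20 ± 0.16 for PMR-116. In KG-1 no member differed between the times by this test, against 1.69% of all genes for PMR-116 and 0.263% for CX-5461.

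The effects also differed between the lines, in a joint fit of all 16 groups. At 12 h of PMR-116, 7 members had a lower effect in Mv4;11 than in KG-1, where 13.2% of all genes did and 25.4% differed in either direction. The differences were -1.02 ± 0.14 for MTERF3, -0.89 ± 0.12 for TFAM, -0.78 ± 0.16 for TFB2M, -0.70 ± 0.13 for TWNK, -0.55 ± 0.13 for TFB1M, -0.49 ± 0.092 for LRPPRC and -0.44 ± 0.10 for POLRMT, with adjusted p between 2.52e-08 and 0.000791. At 12 h of CX-5461, 4 members did so beside 9.04% of all genes (16.2% in either direction): MTERF3 by -0.62 ± 0.14, TFAM by -0.52 ± 0.12, TWNK by -0.37 ± 0.13 and LRPPRC by -0.29 ± 0.092. The TWNK call there was lost without any of 6 single libraries (adjusted p 0.0622 to 0.137), and the LRPPRC call with library totals (0.0652) and without any of 4 single libraries (0.0559 to 0.0642). POLRMT, at an adjusted p of 0.0508, was called with DESeq2 (0.0285), with RLE size factors (0.0466) and with library sizes from nuclear genes (0.0134). It was also called with the replicate block (0.00628) and without any of 5 single libraries. TFB2M differed by -0.41 (adjusted p = 0.0636). It was called with DESeq2 (0.0338), with library sizes from nuclear genes (0.0303), with the replicate block (0.00829) and without some single libraries. DESeq2 and the replicate block each called 6 members. Leaving out 1 library moved the count of 4 members between 2 and 7. At 3 h, TWNK differed by -0.67 ± 0.13 and TFB2M by -0.54 ± 0.16 for PMR-116, beside 3.19% of all genes lower (6.94% in either direction). For CX-5461 at 3 h, TWNK differed by -0.56 ± 0.13 and TFB1M by -0.55 ± 0.13, beside 1.50% lower (3.07% in either direction). POLRMT was not called for either compound at 3 h (adjusted p = 0.0761 for PMR-116 and 0.0804 for CX-5461), but was with DESeq2 (0.0162 and 0.0177). POLG, TEFM and MTERF1 were not called in any of the 4 line comparisons. Each effect was taken within a line against its own vehicle, but the lines were also separate batches.

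Vehicle levels of the members also lay apart between the tables, which is given as a description because line and batch coincide. TFB1M was at 13.3 to 18.04 CPM in the 12 Mv4;11 vehicle libraries and at 29.2 to 40.6 CPM in the 16 of KG-1. TFAM was at 90.999 to 123 CPM in Mv4;11 and 61.5 to 77.5 CPM in KG-1. TEFM was at 11.2 to 15.6 CPM in Mv4;11 and 5.90 to 7.91 CPM in KG-1, and LRPPRC at 402 to 439 CPM in Mv4;11 and 292 to 346 CPM in KG-1.

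The pattern of each member over the 8 comparisons was set beside those of 9468 genes. These were tested in both lines and had a mean of 5 CPM or more in each. The root mean square difference of the log2 fold changes was the measure of likeness. The nearest gene was RBM12 for POLRMT (0.0569), ODC1 for TFAM (0.0535), RRP12 for TFB1M (0.0854), MAT2A for TFB2M (0.0541) and MCPH1 for TEFM (0.0479). It was PRIMPOL for MTERF1 (0.0606), SKA1 for MTERF3 (0.0821), PRRC1 for TWNK (0.0646), RPAP1 for POLG (0.0927) and MAPRE1 for LRPPRC (0.0518). Within the 10, POLRMT and TFB2M were closest (0.123), followed by TFB1M with TWNK (0.157) and TEFM with MTERF1 (0.168). That last distance was larger than the root mean square of the changes of TEFM (0.0832) and of MTERF1 (0.162) themselves.

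The transcripts that this machinery makes were also in the tables, as the 13 mitochondrially encoded mRNAs and both mitochondrial ribosomal RNAs. After 12 h of PMR-116 in Mv4;11, 12 of the 13 mRNAs fell and MT-ND1 rose, with a median log2 fold change of -0.91 over the 13. After 3 h, 9 fell and MT-ND1 rose (median -0.44). CX-5461 libraries at 12 h had 4 lower (MT-CO3, MT-ND4L, MT-ND4 and MT-CYB) and MT-ND1 higher (median -0.23), and at 3 h none lower while MT-ND1 and MT-CO2 rose (median 0.07). In KG-1, PMR-116 libraries had 5 mRNAs lower and 1 higher at 3 h and 6 lower and 2 higher at 12 h (medians -0.14 and -0.15), and CX-5461 libraries had none called at either time (medians -0.07 and -0.05). Mitochondrial mRNAs differed between the compounds in Mv4;11. The effect of PMR-116 was lower than that of CX-5461 for 6 of the 13 at 3 h and 10 at 12 h. Of 20495 genes tested there, 150 and 787 were lower at these times. Without the vehicle library that stood apart, MT-CO1 (adjusted p = 0.00626) and MT-ND2 (0.0339) were also lower at 12 h. For MT-CYB at 12 h in Mv4;11 the difference was -0.95 ± 0.14 (adjusted p = 0.000289). In KG-1 none of the 13 was called lower, where 2 and 5 of 18618 genes were. MT-CYB changes in KG-1 were -0.59 and -0.82 at 3 h and 12 h of PMR-116, against -0.15 and -0.24 with CX-5461. MT-CYB, cytochrome b, was at 602, 568 and 507 CPM in Mv4;11 after 12 h of PMR-116, against 1593, 1544 and 1147 CPM with vehicle (-1.35 ± 0.10, adjusted p = 1.15e-10). In KG-1 it was at 1097, 1032, 831 and 903 CPM, against 1855, 1879, 1664 and 1443 CPM with vehicle (-0.82 ± 0.10, adjusted p = 1.74e-06). MT-ND6, the mRNA of the other strand, was at 279 CPM in Mv4;11 after 12 h of PMR-116, against 565 CPM with vehicle (-1.02, adjusted p = 4.1e-08), but was not called in KG-1, where its means lay between 56.4 and 74.8 CPM. With the strand setting of the counting unstated, whether MT-ND6 counts stand for the same reads in both tables is not known, and this bears on its level and on its difference between the lines. Libraries were made with a poly(A) selecting kit, and most mitochondrial mRNAs carry short tails, so for these a value here is the polyadenylated part. Whether this holds for MT-ND6 was not tested. Nuclear copies of mitochondrial genes share their sequence, and how the counting split reads between them is not stated.

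The changes declined along the heavy-strand transcript, though not at each step, a pattern noticed after the values were seen and given without a test. In Mv4;11 at 12 h of PMR-116 the log2 fold changes, in the order of the transcript, were 0.43 for MT-ND1, -0.34 for MT-ND2, -0.31 for MT-CO1, -0.76 for MT-CO2, -0.91 for MT-ATP8, -0.91 for MT-ATP6, -1.03 for MT-CO3, -0.84 for MT-ND3, -1.27 for MT-ND4L, -1.25 for MT-ND4, -1.02 for MT-ND5 and -1.35 for MT-CYB. MT-CO1, MT-ND3, MT-ND4 and MT-ND5 lay above the gene before them. Without the vehicle library that stood apart, these changes ran from 0.31 for MT-ND1 to -1.50 for MT-CYB. In the matching KG-1 comparison the same genes, in the same order, had 0.67, 0.24, 0.20, -0.0055, 0.0056, -0.15, -0.24, -0.28, -0.35, -0.51, -0.39 and -0.82, where MT-ATP8 and MT-ND5 lay above the gene before them. Over the 12 mRNAs of this strand, Spearman's rho between order and change was -0.80 and -0.90 at 3 h and 12 h of PMR-116 in Mv4;11, -0.96 and -0.99 in KG-1, -0.49 and -0.89 with CX-5461 in Mv4;11, and -0.72 and -0.71 with CX-5461 in KG-1. The genes share libraries and the transcript, so these are descriptions.

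**Figure D4:**
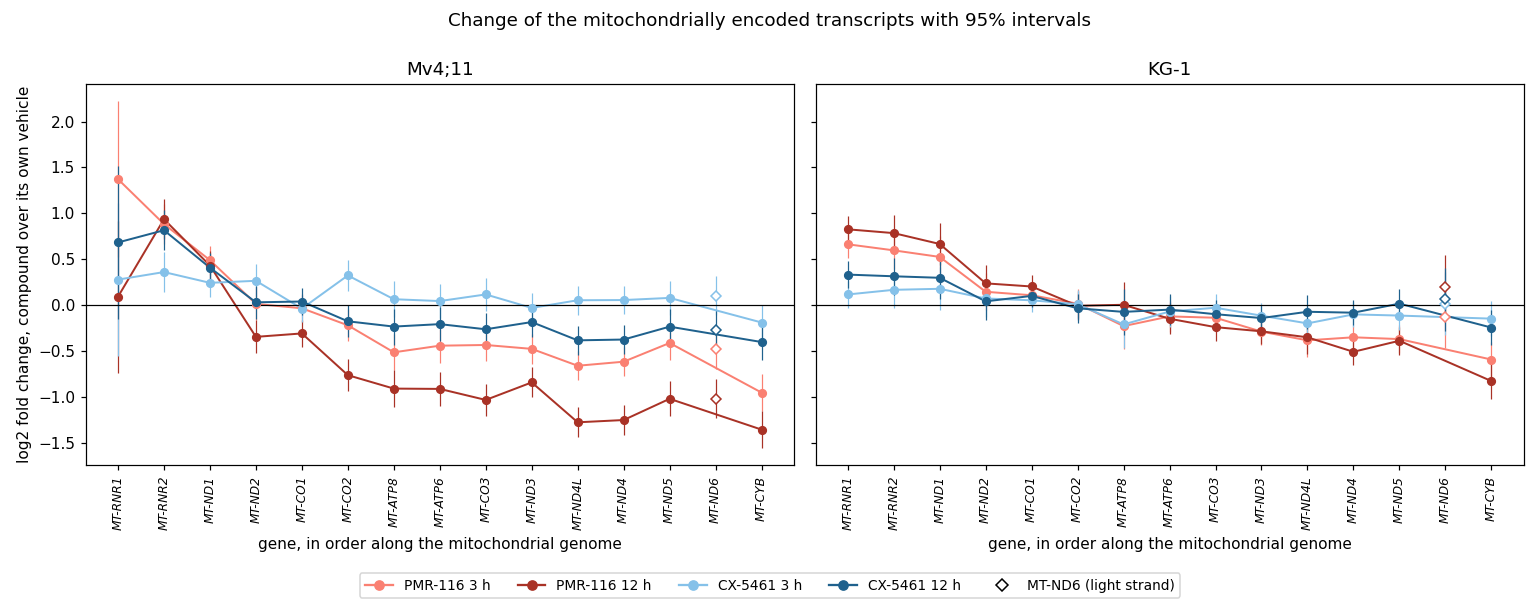
Log2 fold change of each mitochondrially encoded transcript against vehicle, in the order of the heavy-strand transcript from MT-RNR1 to MT-CYB with MT-ND6 of the other strand drawn apart, for the 8 comparisons. The values decline along the order, though not at each step, by 1.79 between MT-ND1 and MT-CYB after 12 h of PMR-116 in Mv4;11 and by 1.49 in KG-1.

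The ratio of MT-ND1 to MT-CYB within a library needs no scaling between libraries. Both genes were picked after their values were seen, so the ratio describes the same pattern by library and is no further evidence for it. In Mv4;11 its log2 value was 1.88, 2.10 and 2.21 after 3 h of PMR-116, against 0.60, 0.64 and 0.61 with vehicle, and 2.46, 2.41 and 2.59 after 12 h, against 0.67, 0.66 and 0.78. With CX-5461 it was 1.05, 1.14 and 1.11 after 3 h, against 0.61, 0.74 and 0.65 with vehicle, and 1.41, 1.43 and 1.48 after 12 h, against 0.63, 0.61 and 0.64. In all 4 Mv4;11 comparisons the treated libraries lay above the vehicle libraries. In KG-1 it was 0.78, 0.72, 0.77 and 0.80 after 3 h of PMR-116, against -0.30, -0.43, -0.32 and -0.34 with vehicle, and 1.05, 1.42, 1.15 and 1.13 after 12 h, against -0.42, -0.17, -0.29 and -0.33. With CX-5461 in KG-1 it was -0.033, 0.0029, 0.075 and 0.039 after 3 h, against -0.31, -0.35, -0.30 and -0.24 with vehicle, and 0.12, 0.48, 0.23 and 0.17 after 12 h, against -0.44, -0.16, -0.28 and -0.30. The treated and vehicle libraries did not overlap in KG-1 either, including in the CX-5461 comparisons, where neither a member nor a mitochondrial mRNA was called.

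The ribosomal RNAs at the start of the transcript were higher or not called. The libraries were made with a poly(A) selecting kit, so their counts stand for the part that the kit captured. Whether that part or the amount of ribosomal RNA changed was not tested. MT-RNR2 rose in Mv4;11 after PMR-116 by 0.88 ± 0.11 at 3 h and 0.94 ± 0.11 at 12 h, and after CX-5461 by 0.36 ± 0.11 and 0.82 ± 0.11. In KG-1 it rose after PMR-116 by 0.60 ± 0.10 and 0.79 ± 0.10, and its changes after CX-5461 were 0.17 ± 0.10 and 0.32 ± 0.10, neither called. MT-RNR1 was called higher too at 3 h of PMR-116 in Mv4;11 and at 3 h and 12 h of PMR-116 in KG-1. At 12 h of CX-5461 in KG-1, 1 of the 2 ribosomal RNAs was called higher, and that was MT-RNR1. In Mv4;11 at 12 h of PMR-116, MT-RNR1 was 0.093 ± 0.42, and 1.73 without the vehicle library that stood apart. Without that library the median of the 13 mRNAs in the same comparison was -1.02.

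Set side by side over the 8 comparisons, the members that fell in Mv4;11 were lowest where the mitochondrial mRNAs were lowest. In the 12 h PMR-116 comparison of Mv4;11 the median mRNA change was -0.91 and the median member change -0.52, against -0.23 and -0.29 for 12 h of CX-5461, -0.44 and -0.19 for 3 h of PMR-116, and 0.07 and -0.18 for 3 h of CX-5461. Pearson's r between the change of a member and the median mRNA change, over 8 comparisons and with no p, was 0.74 for MTERF3, 0.70 for POLRMT, 0.69 for LRPPRC, 0.65 for TFB1M and TFB2M, 0.62 for TWNK and 0.58 for TFAM. It was 0.052 for POLG, -0.19 for TEFM and -0.43 for MTERF1. Spearman's rho was highest for POLRMT (0.60) and TFB2M (0.50), and was 0.095 for TFAM. For each member, r was also taken without the 2 comparisons in which its own change lay farthest from the median of its 8 changes. The comparisons left out can thus differ between members. On the rest, r was 0.45 for POLRMT and 0.41 for TFB2M, but 0.23 for TFB1M, 0.050 for MTERF3, -0.10 for LRPPRC, -0.25 for TWNK and -0.47 for TFAM. For these last 5, r was smaller or reversed on the rest. Leaving out the most extreme changes of a member narrows its range, which by itself can shrink r. The drop therefore cannot tell which members go with the mRNAs. In KG-1 the median mRNA change of -0.15 at 12 h of PMR-116 stood beside a median member change of 0.16, and 3 h of CX-5461 in Mv4;11 lowered TFB1M, MTERF3 and TWNK with no mitochondrial mRNA called lower. The KG-1 mRNA medians, which enter each r, were loosely fixed: leaving out 1 library moved them between -0.22 and -0.12 at 3 h and between -0.23 and -0.093 at 12 h of PMR-116, and between -0.11 and -0.019 at 3 h and between -0.12 and -0.0054 at 12 h of CX-5461. Without the genes that overlap others, the 12 h PMR-116 median was -0.0055. The 8 points share lines and fits, and transcription of the mitochondrial genome was not measured.

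**Figure D5:**
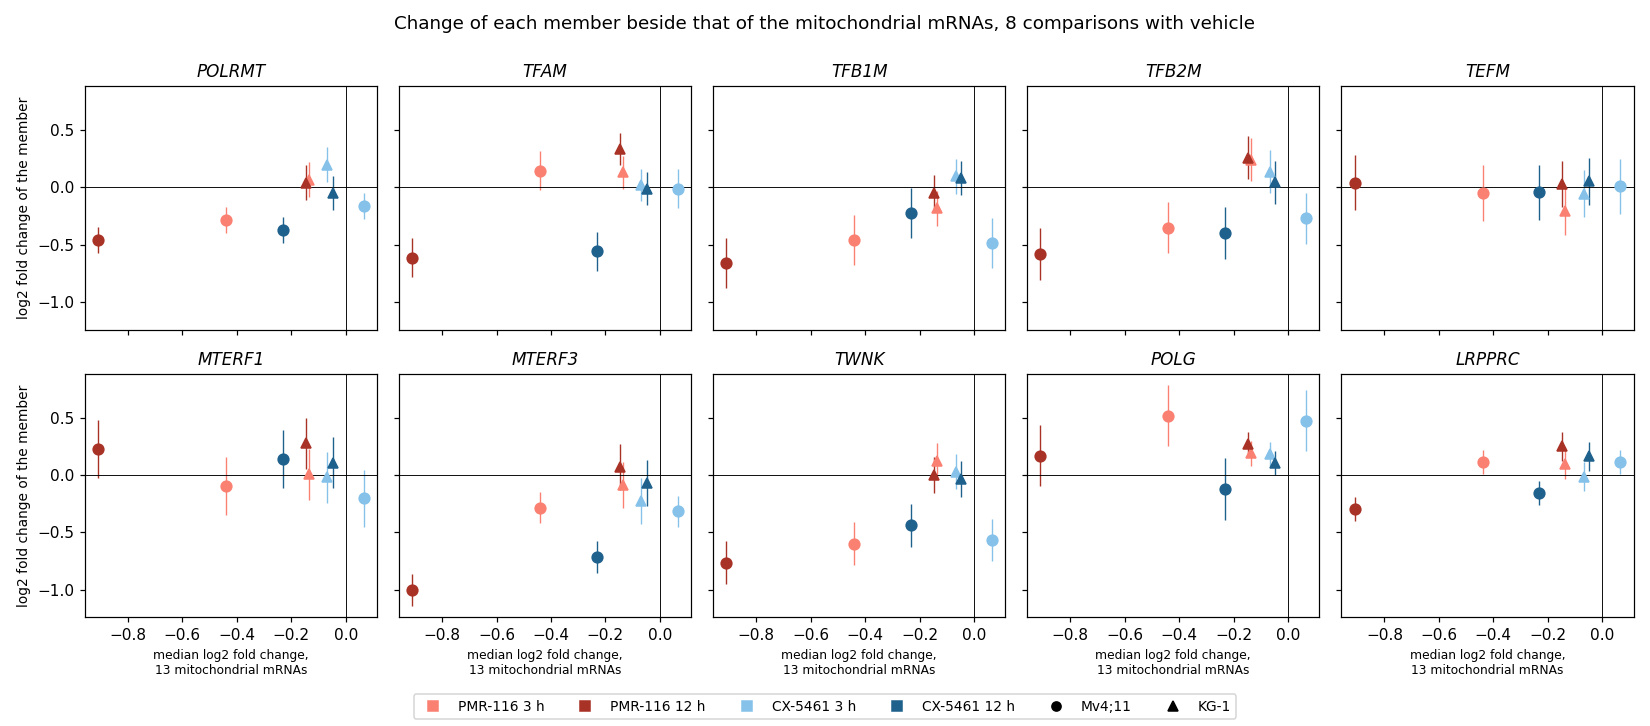
Log2 fold change of each member (vertical axis) against the median log2 fold change of the 13 mitochondrially encoded mRNAs (horizontal axis), 1 point for each of the 8 comparisons, by line and compound. The lowest point of the horizontal axis, -0.91, is 12 h of PMR-116 in Mv4;11, where 7 of the 10 members were called lower.

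The other nuclear genes of mitochondrial genome upkeep moved in Mv4;11 as well. Of 15 genes for replication and maintenance, 11 were lower and none higher after 12 h of PMR-116 (median -0.43, against 0.01 over all genes) and 8 lower and 1 higher after 12 h of CX-5461. These are 73.3% and 53.3% of the list called lower, beside 22.5% and 16.5% of all genes. The rule for naming took DNA2, a nuclease and helicase, at -1.55 ± 0.12 (adjusted p = 2.94e-10), and ATAD3A, an inner membrane ATPase of the nucleoid, at -1.48 ± 0.086 (1.37e-12), for 12 h of PMR-116. At 3 h of PMR-116, 8 were lower and 1 higher (13.1% and 11.0% of all genes were), and the named genes were POLG2, the accessory subunit of POLG, at -0.62 ± 0.075 (1.77e-06), and TOP3A, a topoisomerase, at 0.49 ± 0.063 (4.32e-06). At 3 h, POLG2 was therefore lower where POLG itself was higher. In KG-1, 1 of the 15 was lower after 3 h of PMR-116 (DNA2, -0.35 ± 0.10) and none was called in the other 3 comparisons. That share of 6.67% is near the 7.33% of all genes called there.

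Of 36 genes for mitochondrial RNA processing, modification and decay, 27 were lower and 2 higher after 12 h of PMR-116 in Mv4;11 (median -0.45), and 15 lower and 3 higher after 12 h of CX-5461 (median -0.21). SLIRP, the RNA-binding partner of LRPPRC, was at -1.04 ± 0.085 after PMR-116 (adjusted p = 3.97e-10) and -0.65 ± 0.083 after CX-5461 (1.56e-06), each a lower value than that of LRPPRC. PUS1, a pseudouridine synthase, was at -1.18 ± 0.085 and -0.65 ± 0.083. The shares called lower, 75.0% and 41.7%, stand beside 22.5% and 16.5% of all genes. In KG-1, 4 of the 36 were higher and 1 lower after 12 h of PMR-116, a share of 13.9% beside 9.46% of all genes called.

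Of 14 genes for nucleotide supply, RRM2B, the ribonucleotide reductase subunit that p53 activates, had the largest change at 3 h in Mv4;11, at 0.87 ± 0.068 for PMR-116 (adjusted p = 2.33e-09) and 1.19 ± 0.068 for CX-5461 (7.15e-12). At 12 h the largest were RRM2 and RRM1, the subunits used in S phase, with RRM2 at -1.63 ± 0.083 for PMR-116 and -1.16 ± 0.082 for CX-5461, and RRM1 at -1.42 ± 0.091 for PMR-116 and -1.05 ± 0.09 for CX-5461. In KG-1 RRM2 went the other way and was higher after 12 h of CX-5461, at 0.31 ± 0.069 (adjusted p = 0.00981). Over the list in Mv4;11, 6 were higher and 5 lower after 12 h of PMR-116 and 5 and 5 after 12 h of CX-5461, which is 78.6% and 71.4% called, beside 43.2% and 31.4% of all genes. Of 10 tested nuclear regulators of mitochondrial biogenesis, 6 were lower after 3 h of PMR-116 and 4 after 3 h of CX-5461 in Mv4;11, and none was higher, beside 13.1% and 6.61% of all genes called lower. At 12 h of each compound 4 were lower and 1 was higher, beside 22.5% of all genes lower for PMR-116 and 16.5% for CX-5461. GABPB1, a subunit of the ETS family factor GABP, was at -1.06 ± 0.13 after 3 h of PMR-116 (adjusted p = 2.22e-06) and -0.83 ± 0.13 after 3 h of CX-5461 (8.68e-05). PPRC1, a PGC-1 related coactivator, was at -0.64 ± 0.09 and -0.43 ± 0.089 at the same time. In KG-1, GABPB1 was lower too at 12 h, at -0.39 ± 0.076 for PMR-116 (0.001) and -0.28 ± 0.076 for CX-5461 (0.0435), comparisons in which no member fell.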

How the data were processed

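Each line has 1 deposited table of estimated counts by gene symbol (59409 symbols for Mv4;11, 59081 for KG-1). Per the submitters' processing notes, the authors used Salmon 1.5.2, DESeq2 and the build GRCh38.p13. What each was used for, which annotation release was taken and how strand was treated are not stated in the sources used here. Per the labels' protocols, total RNA came from a Nucleospin kit and the libraries from the Illumina Stranded mRNA Prep kit, and the KG-1 table is named as trimmed. A further 24 columns matched no sample and were not used.

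The estimated counts were rounded and tested with edgeR 4.0.16 (R 4.3.3). filterByExpr (minimum count 10, minimum total 15) set the genes tested, TMM scaled the library sizes, and glmQLFit and glmQLFTest were run on all 8 groups of a line at once. Differences between lines came from a joint fit of 16 groups over 23759 genes. The 20 comparisons were 8 against vehicle and 12 differences of effects. All tests were 2-sided, with Benjamini-Hochberg adjustment over all genes and a threshold of 0.05. Standard errors are the size of the fold change over the root of F, and 95% intervals use normal quantiles. The procedure was tested on simulated data. DESeq2 1.42.0, other scalings, no filter, only the compared groups, a replicate block and leaving out each library were alternatives.

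The members and the 4 lists of related genes were chosen with earlier results of these data known. The text names all members, all mitochondrially encoded mRNAs and ribosomal RNAs, for each member the gene of nearest pattern, and a selection from the 2 largest called changes of each related list in each comparison with vehicle (5 CPM or more on average in the higher group). Libraries of a group differed by more than counting noise (chi-square per degree of freedom of 6.51 or more), so none was counted as a duplicate. Sequences were read from a RefSeq promoter table and positions from GENCODE v29.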

Additional observations from a re-analysis of the deposited data

Results flagged for a closer look

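In 9 of the 200 groups of 4 KG-1 libraries examined (10 members and 15 mitochondrial transcripts in 8 groups each), 1 library lay farther from the other 3 than Dixon's 95% limit allows, and chance gives about 1 in 20. After 3 h of PMR-116, TFAM was at 81.3 CPM in replicate 3, with the others at 69.5 to 70.4, and MT-ND6 was at 46.1 CPM in replicate 2, with the others at 71.1 to 72.8. In the vehicle group of that comparison, replicate 4 was low for MT-ATP6 (3141 CPM, others 3682 to 3754), MT-ND1 (1380.0 CPM, others 1707 to 1742) and MT-ND2 (2275 CPM, others 2684 to 2719). After 12 h of PMR-116, POLG was at 97.2 CPM in replicate 2, with the others at 108 to 109. After 12 h of CX-5461, replicate 2 had 7364 CPM of MT-RNR2 (others 5588 to 5814) and 36.7 CPM of MTERF3 (others 40.7 to 41.2). In the vehicle group of that comparison, TFAM was at 77.3 CPM in replicate 1, with the others at 68.0 to 69.0.

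A further 51 results are effects that differed between times or lines by the test of the difference itself, 22 of them for members. For 12 h minus 3 h of PMR-116 in Mv4;11, the members were TFAM (-0.76), MTERF3 (-0.72) and LRPPRC (-0.41). The mitochondrial mRNAs of that comparison were MT-ND2 (-0.36), MT-CO2 (-0.54), MT-ATP8 (-0.39), MT-ATP6 (-0.47), MT-CO3 (-0.60), MT-ND3 (-0.37), MT-ND4L (-0.62), MT-ND4 (-0.63), MT-ND5 (-0.61), MT-ND6 (-0.54) and MT-CYB (-0.40). For 12 h minus 3 h of CX-5461 in Mv4;11, they were TFAM (-0.55), MTERF3 (-0.40), POLG (-0.59) and LRPPRC (-0.27), with MT-CO2 (-0.50), MT-CO3 (-0.38), MT-ND4L (-0.44), MT-ND4 (-0.43) and MT-RNR2 (0.46).

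For Mv4;11 minus KG-1 at 12 h of PMR-116, the members were MTERF3 (-1.02), TFAM (-0.89), TFB2M (-0.78), TWNK (-0.70), TFB1M (-0.55), LRPPRC (-0.49) and POLRMT (-0.44). The mitochondrial mRNAs were MT-ND6 (-1.15, for which the strand setting of the counting is not known), MT-ND4L (-0.86), MT-ATP8 (-0.85), MT-CO3 (-0.73), MT-ATP6 (-0.70), MT-CO2 (-0.69), MT-ND4 (-0.68), MT-ND5 (-0.57), MT-ND2 (-0.52), MT-ND3 (-0.50), MT-CYB (-0.47) and MT-CO1 (-0.45). At 12 h of CX-5461, they were MTERF3 (-0.62), TFAM (-0.52), TWNK (-0.37), LRPPRC (-0.29) and MT-RNR2 (0.53). At 3 h of PMR-116, they were TWNK (-0.67) and TFB2M (-0.54), and at 3 h of CX-5461, TWNK (-0.56) and TFB1M (-0.55).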

How the results depend on the processing

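Of the 49 member calls over 20 comparisons, 37 kept their direction and their side of the threshold under every alternative run, and no member reversed in any of 3600 alternatives. MT-RNR1 reversed without replicate 3 of the Mv4;11 12 h PMR-116 vehicle, to 1.06 for PMR-116 minus CX-5461 (-0.59 with all libraries, -1.02 without vehicle replicate 1) and to 0.96 for Mv4;11 minus KG-1 (-0.69, and -1.12). The causes were not tested.

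Members called moved from 1 to 0 at 3 h of PMR-116 in KG-1 with library totals and with no filter, from 4 to 2 for 12 h minus 3 h of CX-5461 in Mv4;11 with each of these, from 0 to 1 (POLG) with DESeq2 at 3 h of CX-5461 in KG-1, and from 0 to 1 (MTERF3) with DESeq2 for the compounds at 12 h in Mv4;11. The median of the 13 mitochondrial mRNAs at 12 h of PMR-116 was -0.74 with library totals in Mv4;11 and -0.0055 without the overlapping genes in KG-1.

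Counts over all genes moved most in KG-1. DESeq2 called 1100 genes at 3 h and 821 at 12 h of CX-5461 (640 and 473 by edgeR), 647 and 210 for the times (314 for PMR-116, 49 for CX-5461), and 18 and 93 for the compounds at 3 h and 12 h (2 and 9). In Mv4;11 DESeq2 called 604 and 1577 for the compounds (275 and 1047), and 1175 for the lines at 3 h of CX-5461 (730). With no filter there were 371 and 268 for CX-5461 at 3 h and 12 h, 1152 for 12 h of PMR-116 (1762), 171 and 23 for the times and 3 for the compounds at 12 h in KG-1, and 714 for the compounds at 3 h in Mv4;11. With only the compared groups there were 332, 71, 911, 162, 8 and 0 for the same KG-1 comparisons, 1 for the compounds at 3 h in KG-1 and 139 in Mv4;11. Library totals gave 26 for the compounds at 12 h and 83 for the CX-5461 times in KG-1.

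Replicate numbers are shared between groups, but the main fit did not pair the libraries by them. Correlations of same-numbered deviations were over 0.1 in 9 of 16 KG-1 pairs and 1 of 12 Mv4;11 pairs. In KG-1 13 libraries and in Mv4;11 10 correlated best with their own number, more than numbers without meaning would give. The numbers may therefore carry a pairing that the main fit ignored, and the KG-1 counts depended on it. With a replicate block, KG-1 had 2599 genes called at 3 h of PMR-116 (1364), 1733 at 3 h and 1313 at 12 h of CX-5461, 3198 at 12 h of PMR-116, 1235 and 402 for the times, 18 and 179 for the compounds, and 1220 for the lines at 3 h of CX-5461. Members called with the block in KG-1 were 3 at 3 h of PMR-116, with TFB1M lower (-0.19, adjusted p = 0.0255) and TFB2M higher (0.0298), 2 at 3 h of CX-5461, POLG and POLRMT higher (0.0142 and 0.0208), and TFB2M also at 12 h of PMR-116 (0.0166).

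Leaving out 1 library at a time gave 0 to 13 genes for the compounds at 12 h in KG-1, 288 to 401 and 362 to 582 for CX-5461 at 12 h and 3 h, 22 to 50 for its times, 901 to 1279 for 3 h of PMR-116 (901 without vehicle replicate 2), 143 to 458 for the compounds at 3 h in Mv4;11, and 1573 to 1948 for 3 h of CX-5461 in Mv4;11 (2390 with all, 1573 without treated replicate 3). The lowest counts came without treated replicate 1 of KG-1 at 12 h (288) and 3 h (22), without vehicle replicate 4 of KG-1 at 3 h of CX-5461 (362) and without vehicle replicate 3 of PMR-116 at 3 h in Mv4;11 (143). Members called ranged from 2 (without Mv4;11 treated replicate 2) to 7 (without KG-1 treated replicate 3) for the lines at 12 h of CX-5461, from 0 to 1 at 12 h of CX-5461 in KG-1, from 0 to 2 at 3 h of PMR-116 in KG-1 and from 0 to 1 for the compounds at 12 h in Mv4;11. Counts were low for TEFM and MTERF1, at 4.81 to 16.5 CPM and 8.80 to 24.6 CPM over all libraries, but counting noise was not separated from the spread between libraries.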
